A study of Mus musculus with 20 samples.

Results

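The comparison described here is full loss of *Irf5* on a *Lyn* knockout background, measured as RNA in peripheral blood. It uses 8 of the 20 deposited libraries, 4 from mice labelled *Lyn*-/-*Irf5*-/- and 4 from *Lyn*-/- mice, chosen by these labels alone. All mice were female, aged 22 to 23 weeks and on a C57BL/6 background, with 1 mouse per library. Both compared groups lack *Lyn* throughout the body, so neither is a normal blood, and the study describes the *Irf5* allele as a conventional rather than an inducible knockout. The other 3 genotypes, *Lyn*-/-*Irf5*+/-, *Lyn*-/-*Ifnar1*-/- and WT (4 mice each), are quoted only for context, as means ± SD with no test. The question the comparison addresses is which genes in the blood of this lupus-like model differ when the mice also lack *Irf5*. Values are RPKM (reads per kilobase of gene, scaled to the library's mapped reads) with the authors' TMM scaling (trimmed mean of M values), and per-mouse values are listed for mice 1 to 4 in that order. A gene was tested where 4 or more of the 8 libraries reached 1 RPKM, which kept 8178 of the 9228 genes listed. Differences are on the log2(RPKM + 0.5) scale, *Lyn*-/-*Irf5*-/- minus *Lyn*-/-, ± SE with 4 mice in each group. Adjusted p values are from limma with Benjamini-Hochberg adjustment over all 8178 genes, with a threshold of 0.05.

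IRF5 is a transcription factor that is activated downstream of MyD88 when endosomal Toll-like receptors such as TLR7 and TLR9 detect nucleic acids, and it drives genes for type I interferon and inflammatory cytokines. LYN is a kinase of the SRC family that restrains this pathway and B cell receptor signalling, and mice without it develop autoantibodies and lupus-like disease. Type I interferon, sensed through a receptor that contains IFNAR1, induces the interferon-stimulated genes (ISGs) that mark the blood of many patients with lupus. Whole blood RNA is a mixture, here mostly from red cell precursors that have lost their nucleus (reticulocytes), with leukocytes and platelets. In such bulk samples, fewer cells of a type and less RNA per cell cannot be told apart.

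The targeted genes were looked at first. *Lyn* (chr4:3678068-3791612, mm10) had 9.74, 7.43, 11.4 and 10.3 RPKM in mice labelled *Lyn*-/-*Irf5*-/-, against 10.2, 8.4, 9.49 and 11.9 RPKM in *Lyn*-/- mice, and its WT mean was 34.6 ± 2.44 RPKM. Reads on *Lyn* were thus at a like level in both compared groups, with overlapping values (log2 difference -0.05 ± 0.16, adjusted p = 0.882 by limma). *Irf5* (chr6:29526130-29541869) had 38.5, 35.1, 40.8 and 38.2 RPKM in mice labelled *Lyn*-/-*Irf5*-/-, against 40.4, 31.3, 33.9 and 27.8 RPKM in *Lyn*-/- mice. The *Irf5* value was therefore not lower in the mice labelled *Lyn*-/-*Irf5*-/- (log2 difference 0.20 ± 0.14, adjusted p = 0.372 by limma), and it averaged 28.7 ± 3.43 RPKM in *Lyn*-/-*Irf5*+/- mice, 21.9 ± 5.35 in *Lyn*-/-*Ifnar1*-/- mice and 20.9 ± 0.64 in WT mice. With equal RPKM sums outside hemoglobin, a scaling described below, *Irf5* was called higher in the mice labelled *Lyn*-/-*Irf5*-/- (log2 difference 0.89, adjusted p = 0.0127 by limma). A gene-level RPKM also counts reads outside the deleted part of a gene, so this value does not check the *Irf5* allele, and the group is called by its label throughout.

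The 4 libraries labelled *Lyn*-/-*Irf5*-/- held 2911833 to 3150711 reads in the listed genes, against 2900857 to 10904301 in the *Lyn*-/- libraries, as recovered from the RPKM steps. The median gene held 35 to 52 reads in libraries labelled *Lyn*-/-*Irf5*-/- and 39 to 69 in *Lyn*-/- libraries, so differences in genes near 1 RPKM rest on few reads. The listed hemoglobin genes took 60.4% to 68.4% of all RPKM in mice labelled *Lyn*-/-*Irf5*-/-, against 55.5% to 61.3% in *Lyn*-/- mice. Libraries labelled *Lyn*-/-*Irf5*-/- resembled each other more (Pearson r across genes 0.978 to 0.984) than *Lyn*-/- libraries did (0.940 to 0.977), and pairs between the genotypes reached 0.912 to 0.954. The list of markers that define red cells, B, T and NK cells, neutrophils, monocytes and platelets matched 15 tested genes, which the filter itself required to reach 1 RPKM, while its entries for other tissues and some globin genes were not analysed here.

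Of the 8178 genes, 1446 passed the threshold, which is a background of 17.7% called. More genes fell than rose in the mice labelled *Lyn*-/-*Irf5*-/-, with 954 lower (11.7% of all tested) and 492 higher (6.02%). The falls were also larger: 500 genes were lower by at least 1 log2 unit and 100 by at least 2, whereas 83 were higher by at least 1 and 0 by at least 2. The genotypes did not overlap in 1081 genes that were lower (13.2%) and in 775 that were higher (9.48%). Without 1 library at a time, 900 to 1798 genes passed, with 900, 919 and 929 passing without mouse 1, 2 or 3 labelled *Lyn*-/-*Irf5*-/-, and the direction split stayed at more genes lower than higher.

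The direction split depends on the scaling. TMM assumes that most genes do not differ, and under it the median log2 difference of all tested genes was 0.05. Once libraries were scaled to equal RPKM sums, this median moved up by 0.47, and 1329 genes were called higher and 377 lower (77.9% of calls higher, against 34.0% under TMM). Setting the same sum outside the hemoglobin genes moved it up by 0.60, with 4338 genes higher and 410 lower. Median-of-ratios scaling gave 400 higher and 1015 lower. The groups below are described under the authors' scaling, with counts under the equal-sum scalings where they differ.

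**Figure D1:**
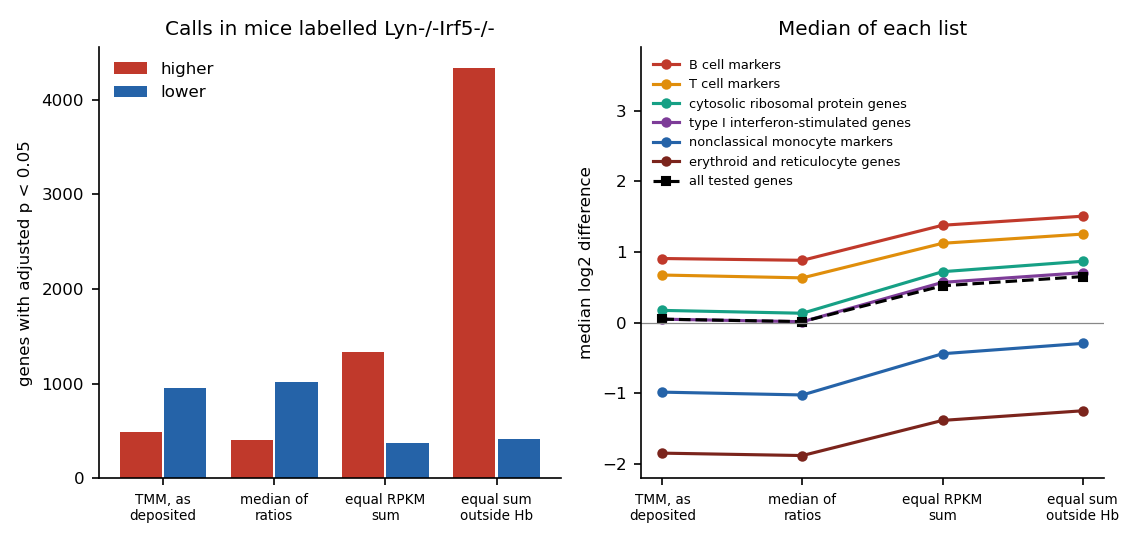
Left, number of genes called higher (red) or lower (blue) in mice labelled *Lyn*-/-*Irf5*-/- under 4 scalings of the same 8 libraries. Right, median log2 difference (*Lyn*-/-*Irf5*-/- minus *Lyn*-/-) of 6 gene lists and of all 8178 tested genes (dashed) under the same scalings. The lines shift together by up to 0.60, and the erythroid list stays below 0 and the B and T cell lists above 0 under each of the 4.

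Genes of the red cell lineage fell most widely. Of 49 tested erythroid and reticulocyte genes, 43 fell and 0 rose in the mice labelled *Lyn*-/-*Irf5*-/-, with a median difference of -1.84, against 0.05 over all genes. *Tmod1* (chr4:46038940-46116032), which caps actin filaments in the red cell membrane skeleton, had 8.31, 15.2, 14.2 and 14.7 RPKM in mice labelled *Lyn*-/-*Irf5*-/-, against 71.7, 135, 84.1 and 170.3 RPKM in *Lyn*-/- mice. The highest mouse labelled *Lyn*-/-*Irf5*-/- was thus well below the lowest *Lyn*-/- mouse, and the log2 difference was -3.04 ± 0.28 (adjusted p = 0.000297 by limma). *Tspan33* (chr6:29694214-29718558), a tetraspanin needed for normal red cell formation in mice, had 25.9, 37.4, 37.97 and 38.6 RPKM in mice labelled *Lyn*-/-*Irf5*-/-, against 184, 327, 262 and 391 RPKM in *Lyn*-/- mice (difference -3.00 ± 0.23). Both genes separated the genotypes completely, which the rule that named them required. *Add2*, the beta subunit of the membrane skeleton protein adducin, also did not overlap (difference -2.66 ± 0.24, adjusted p = 0.000297 by limma). *Slc4a1*, the band 3 anion exchanger that is the main red cell membrane protein, had 122, 270.3, 219.8 and 266 RPKM in mice labelled *Lyn*-/-*Irf5*-/-, against 837, 1646, 1216 and 2302 RPKM in *Lyn*-/- mice. Its log2 difference was -2.74 ± 0.33 (adjusted p = 0.000517), and its mean in WT mice was 363 ± 90.6 RPKM, between the values of the compared groups. *Tmod1* averaged 23.4 ± 3.05 RPKM in *Lyn*-/-*Irf5*+/- mice, 59.99 ± 50.1 in *Lyn*-/-*Ifnar1*-/- mice and 26.6 ± 7.15 in WT mice, so that the mice labelled *Lyn*-/-*Irf5*-/- had the lowest mean of the 5 genotypes.

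*Alas2*, the first enzyme of heme synthesis in red cells, had 11889, 15849, 13551 and 21304 RPKM in mice labelled *Lyn*-/-*Irf5*-/-, against 24254, 44919, 35156 and 55325 RPKM in *Lyn*-/- mice. The genotypes did not overlap, but the difference was -1.32 ± 0.35 (adjusted p = 0.0253), and the call was lost when 5 of the 8 libraries were left out 1 at a time (adjusted p up to 0.0964). *Bpgm*, which makes the 2,3-bisphosphoglycerate that tunes oxygen release, fell by a like amount (difference -1.43 ± 0.31, adjusted p = 0.00977). The adult beta-globin gene *Beta-s* (Hbb-bs), looked up because of its abundance after other values were seen, did not pass, with a difference of -0.46 ± 0.59 (adjusted p = 0.643). With equal RPKM sums, over all genes or outside hemoglobin, 38 of the 49 erythroid genes were called lower and 1 was called higher. Leaving out any 1 library gave 38 to 43 lower.

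Genes that handle heme and oxidants fell alongside, as did some genes of dividing cells. Of 22 heme breakdown and oxidant defence genes, 10 fell and 0 rose (median -0.62). *Prdx2*, the abundant red cell peroxiredoxin, had 313, 469.8, 478 and 512 RPKM in mice labelled *Lyn*-/-*Irf5*-/-, against 1466, 2592, 1890.2 and 3079.8 RPKM in *Lyn*-/- mice (difference -2.31 ± 0.26, adjusted p = 0.000394). Catalase (*Cat*) differed by -2.22 ± 0.29 and biliverdin reductase B (*Blvrb*) by -2.11 ± 0.30. These 3 genes are highly expressed in red cells, whereas *Hmox1*, the heme oxygenase of macrophages and monocytes, had 8.79, 7.75, 8.5 and 9.01 RPKM in mice labelled *Lyn*-/-*Irf5*-/-, against 30.8, 22.9, 30 and 24.4 RPKM in *Lyn*-/- mice (difference -1.60 ± 0.14). *Hmox1* values were tight within each genotype and did not follow the order of the red cell genes over the *Lyn*-/- mice. Of 16 mitotic genes, 6 fell and 0 rose, while the list median was -0.23. Of the 13 with at least 1 RPKM in all 8 libraries, 4 fell and the median was -0.02. All 6 mitotic genes that fell were lowest in *Lyn*-/- mouse 1 and highest in *Lyn*-/- mouse 4 within that genotype. So were 7 of the 10 heme and oxidant genes that fell, and 59% of all genes that fell. Most erythroid genes that fell shared this pattern, and the part of red cell RNA in these falls was not tested. *Nusap1*, a spindle protein, differed by -2.19 ± 0.31, the ubiquitin-conjugating enzyme *Ube2c* of the anaphase-promoting complex pathway by -1.74 ± 0.31, cyclin A2 (*Ccna2*) by -1.80 ± 0.34 and the proliferation marker *Mki67* by -1.81 ± 0.29. In mice labelled *Lyn*-/-*Irf5*-/- *Mki67* was under the filter of 1 RPKM, with 0.592, 0.773, 0.522 and 0.858 RPKM, against 1.7, 4.02, 3.7 and 6.42 RPKM in *Lyn*-/- mice.

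**Figure D2:**
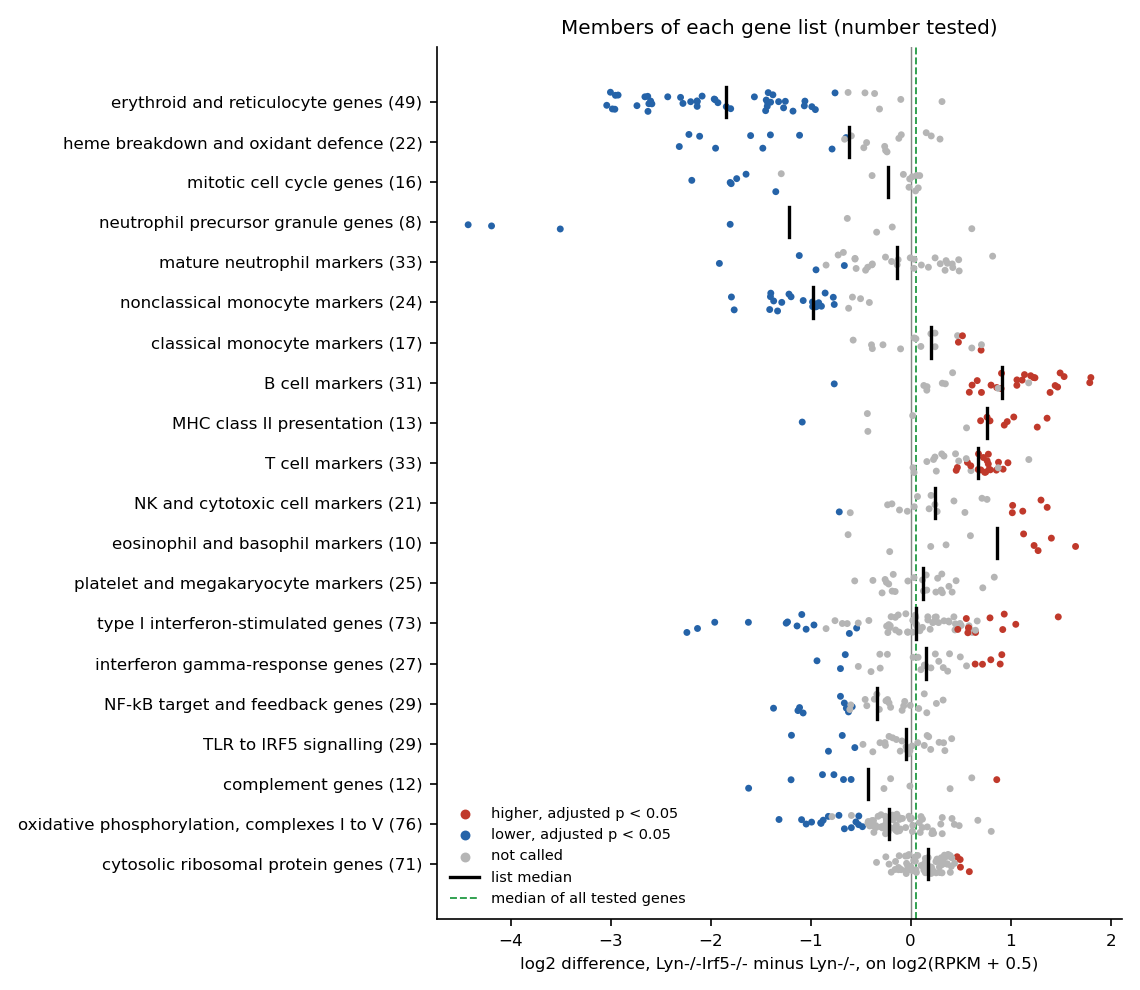
Each point is a tested gene of the list named on the left (number tested in parentheses), placed by its log2 difference, *Lyn*-/-*Irf5*-/- minus *Lyn*-/-, on log2(RPKM + 0.5), with vertical scatter added only for visibility. Red and blue points passed the threshold, black bars are list medians and the dashed line is the median of all tested genes. Erythroid members lie mostly between -3.04 and -0.76, B and T cell members mostly right of 0, and type I ISGs on both sides.

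Genes outside the lists also stood among the largest falls. *Asns*, asparagine synthetase, had 1.44, 1.64, 1.99 and 3.04 RPKM in mice labelled *Lyn*-/-*Irf5*-/-, against 27.02, 26.7, 14.1 and 35.4 RPKM in *Lyn*-/- mice (difference -3.35 ± 0.27, adjusted p = 0.000265). *Acsl1*, which activates long-chain fatty acids, differed by -2.97 ± 0.28 with 16.2, 24.4, 18.6 and 19.3 RPKM in mice labelled *Lyn*-/-*Irf5*-/-, against 88.02, 204, 131 and 250.1 RPKM in *Lyn*-/- mice. *Ypel4*, a yippee-like zinc-binding protein, differed by -2.98 ± 0.36, and the apolipoprotein L family gene *Apol11a* by -2.98 ± 0.40. The rule that named these 4 genes required that the genotypes not overlap. Over the *Lyn*-/- mice *Acsl1* and *Ypel4* followed the order of the red cell genes, while *Asns* and *Apol11a* did not. The part of red cell RNA in these falls was not tested. *Ypel4* reached 1 RPKM in *Lyn*-/- mice alone, so that it passed the filter through the group where it is high. In WT mice *Asns* averaged 3.44 ± 1.23 RPKM, *Acsl1* 41.6 ± 9.47 RPKM, *Ypel4* 0.937 ± 0.983 RPKM and *Apol11a* 2.79 ± 1.01 RPKM.

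The largest differences of all were in granule genes of neutrophil precursors. Of 17 entries, 8 passed the filter, and of these 4 fell and 0 rose (median -1.22), the fourth being *Mki67*, a proliferation gene that was described above. *Ltf* and *Mki67* reached 1 RPKM in *Lyn*-/- mice alone, so that they passed the filter through the group where they are high, and the count and median say nothing of the list as a whole. Only 3 genes of the list had at least 1 RPKM in all 8 libraries, and of these 0 were called (median -0.34). *Ngp* (chr9:110419808-110423012), neutrophilic granule protein, had 0.918, 1.81, 5.15 and 3.46 RPKM in mice labelled *Lyn*-/-*Irf5*-/-, against 234, 46.6, 32.7 and 42.2 RPKM in *Lyn*-/- mice (difference -4.43 ± 0.58, adjusted p = 0.000663). *Camp* (chr9:109847377-109849456), the cathelicidin precursor, had 0.356, 1.05, 0.399 and 0 RPKM in mice labelled *Lyn*-/-*Irf5*-/-, against 57.95, 20.6, 8.07 and 5.84 RPKM in *Lyn*-/- mice (difference -4.19 ± 0.59). *Ltf*, the iron-binding granule protein lactoferrin, had 0.0777, 0.154, 0.174 and 0.338 RPKM in mice labelled *Lyn*-/-*Irf5*-/-, against 26.2, 5.46, 5.54 and 3.19 RPKM in *Lyn*-/- mice (difference -3.50 ± 0.48). *Lyn*-/- mouse 1 was far above the other *Lyn*-/- mice in all 3, yet the other 3 *Lyn*-/- mice were also above every mouse labelled *Lyn*-/-*Irf5*-/-. That lack of overlap was required by the rule that named these genes. Because several values are near 0, the sizes of these differences depend on the added 0.5 RPKM. The WT means were 3.96 ± 3.5 RPKM for *Ngp*, 0.76 ± 0.663 for *Camp* and 0.329 ± 0.162 for *Ltf*, which is near the level of the mice labelled *Lyn*-/-*Irf5*-/-. The calls of these 3 genes held without each library in turn and under both equal-sum scalings.

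Markers of mature neutrophils did not move as a group. Of 33 tested, 4 fell and 0 rose, with a median of -0.14. That is 12.1% lower, near the background of 11.7% lower. The 4 calls were *Grina* (difference -1.91 ± 0.20), *Cybb* (-0.95 ± 0.13), *Irg1* (-1.11 ± 0.31) and *Trem1* (-0.66 ± 0.20). *Grina* is a transmembrane apoptosis regulator, *Cybb* the catalytic subunit of the phagocyte NADPH oxidase, *Irg1* the enzyme that makes itaconate, and *Trem1* an activating receptor of neutrophils and monocytes. *Cybb* had 21.4, 19.6, 23.9 and 22.3 RPKM in mice labelled *Lyn*-/-*Irf5*-/-, against 44.2, 38.99, 45.6 and 41.1 RPKM in *Lyn*-/- mice. The calls of *Cybb*, *Irg1* and *Trem1* were lost under both equal-sum scalings, that of *Irg1* also when 4 of the 8 libraries were left out 1 at a time (adjusted p up to 0.0793) and that of *Trem1* when 6 were (adjusted p up to 0.119). *Trem1* values overlapped between the genotypes, and without *Lyn*-/- mouse 1 the list gave 10 genes higher and 3 lower, so its direction rests on that library. The summed RPKM of the list was 9973 in that mouse, against 3102 to 4584 in the other *Lyn*-/- mice. *Grina* was instead lowest in that mouse, with 687, 970, 761 and 1168 RPKM in *Lyn*-/- mice. That is the order of the red cell genes in these mice, and the cell source of *Grina* RNA was not tested.

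Markers of nonclassical monocytes, the patrolling Ly6C-low monocytes, fell nearly as a block. Of 24 tested, 20 fell and 0 rose, and all 24 differences were negative (median -0.98). *Treml4* (chr17:48264200-48275607), a receptor of these monocytes, had 22.6, 21.2, 29.3 and 28.7 RPKM in mice labelled *Lyn*-/-*Irf5*-/-, against 69.9, 64.3, 72.97 and 63.1 RPKM in *Lyn*-/- mice (difference -1.40 ± 0.15, adjusted p = 0.00039). *Cd300e* (chr11:115051917-115066676), an activating receptor, had 12.7, 15.2, 23.6 and 18.1 RPKM in mice labelled *Lyn*-/-*Irf5*-/-, against 72.5, 54.9, 54.7 and 54.9 RPKM in *Lyn*-/- mice (difference -1.77 ± 0.19). The angiotensin-converting enzyme *Ace* had 13.2, 15.4, 16.2 and 17.7 RPKM in mice labelled *Lyn*-/-*Irf5*-/-, against 49.7, 35.4, 40.3 and 39.7 RPKM in *Lyn*-/- mice (difference -1.37 ± 0.15). In each of these genes the highest mouse labelled *Lyn*-/-*Irf5*-/- lay below the lowest *Lyn*-/- mouse. Transglutaminase 2 (*Tgm2*) differed by -1.40 ± 0.16. Of the lineage receptors, *Csf1r*, for macrophage colony-stimulating factor, differed by -1.33 ± 0.15 and the fractalkine receptor *Cx3cr1* by -0.89 ± 0.13. *Cx3cr1* had 6.87, 7.18, 7.84 and 8.97 RPKM in mice labelled *Lyn*-/-*Irf5*-/-, against 14.98, 14.5, 15.3 and 13.97 RPKM in *Lyn*-/- mice. Leaving out any 1 library gave 20 or 21 genes of the list lower. With equal RPKM sums, over all genes or outside hemoglobin, 6 or 8 were called lower and the list median was -0.44 or -0.29. The call of *Cx3cr1* was lost under both of these scalings, and that of *Csf1r* with equal sums over all genes. Summed over the list, RPKM reached 481 to 574 in mice labelled *Lyn*-/-*Irf5*-/-, against 1008 to 1270 in *Lyn*-/- mice and 248 to 267 in WT mice.

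Classical monocyte markers did not follow. Of 17 tested, 3 rose and 0 fell (median 0.20), which is 17.6% higher, against a background of 6.02% higher. The genes that rose included the membrane protein gene *Ms4a4c* (0.52 ± 0.16) and the chemokine gene *Ccl9* (0.48 ± 0.14). Both calls were lost without at least 5 of the libraries, with adjusted p up to 0.118 for *Ms4a4c* and 0.108 for *Ccl9*.

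**Figure D3:**
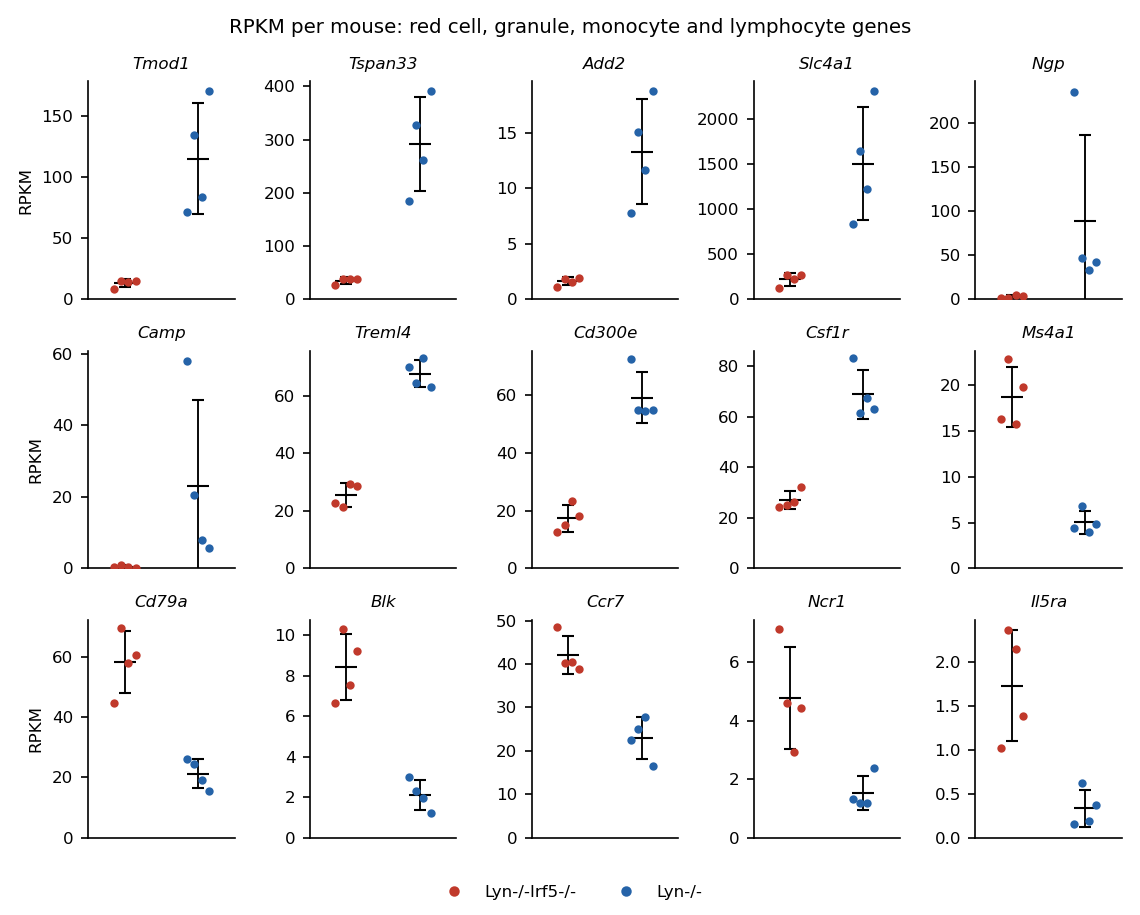
RPKM of 15 genes in each mouse labelled *Lyn*-/-*Irf5*-/- (red, left) and each *Lyn*-/- mouse (blue, right). Horizontal marks and bars are the mean ± SD of 4 mice, and axes start at 0, which cuts the lower bar of *Ngp* and *Camp*. The genotypes do not overlap in any of the 15 genes, with red cell, granule and monocyte genes lower and lymphocyte and eosinophil genes higher in mice labelled *Lyn*-/-*Irf5*-/-. The naming rule required this of *Tmod1*, *Tspan33*, *Ngp*, *Camp*, *Ms4a1* and *Blk*.

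B cell genes rose. Of 31 tested B cell markers, 22 rose and 1 fell, with a median of 0.91. *Ms4a1* (chr19:11249679-11266149), which encodes CD20, had 16.4, 22.8, 15.8 and 19.8 RPKM in mice labelled *Lyn*-/-*Irf5*-/-, against 4.42, 6.85, 4.03 and 4.89 RPKM in *Lyn*-/- mice (difference 1.80 ± 0.18, adjusted p = 0.000318). *Cd79a*, a signalling chain of the B cell receptor, had 44.8, 69.5, 57.9 and 60.7 RPKM in mice labelled *Lyn*-/-*Irf5*-/-, against 25.95, 24.5, 18.98 and 15.5 RPKM in *Lyn*-/- mice (difference 1.45 ± 0.19). *Blk*, a SRC family kinase of B cells and a relative of LYN, had 6.63, 10.3, 7.54 and 9.23 RPKM in mice labelled *Lyn*-/-*Irf5*-/-, against 3.01, 2.31, 1.95 and 1.24 RPKM in *Lyn*-/- mice (difference 1.79 ± 0.22). None of these values overlapped between the genotypes, which the naming rule required of *Ms4a1* and *Blk*. The follicle-homing receptor *Cxcr5* differed by 1.53 ± 0.22, the surface protein gene *Ly6d* by 1.49 ± 0.18 and the inhibitory receptor *Btla*, which T cells also carry, by 1.06 ± 0.14. *Prr5*, a component of the TORC2 complex that is not among the B cell markers, differed by 1.65 ± 0.29. *Prr5* reached 1 RPKM only in mice labelled *Lyn*-/-*Irf5*-/-, so that it passed the filter through the group where it is high. The level of B cell genes remained below that of WT mice: *Ms4a1* averaged 18.7 ± 3.26 RPKM in mice labelled *Lyn*-/-*Irf5*-/-, 5.04 ± 1.25 in *Lyn*-/- mice and 63.6 ± 13.1 in WT blood. Summed over the list, RPKM was 385 to 542 in mice labelled *Lyn*-/-*Irf5*-/-, 404 to 461 in *Lyn*-/-*Irf5*+/- mice, 201 to 281 in *Lyn*-/- mice and 1086 to 1476 in WT mice. Leaving out any 1 library gave 16 to 23 markers higher, and the equal-sum scalings gave 24 and 30.

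Antigen presentation and antibody secretion genes were read alongside. Of 13 MHC class II presentation genes, 8 rose and 1 fell (median 0.76). *H2-Aa*, the alpha chain of the I-A molecule, had 103, 133, 100.2 and 128 RPKM in mice labelled *Lyn*-/-*Irf5*-/-, against 68.6, 59.7, 58.4 and 49.9 RPKM in *Lyn*-/- mice (difference 0.97 ± 0.16, adjusted p = 0.00171). *H2-Eb1*, a beta chain, differed by 1.03 ± 0.15 and *H2-Ob*, a subunit of the H2-O modulator found in B cells, by 1.27 ± 0.18. The gene that fell was *Lgmn*, a lysosomal protease that processes antigen, with 13.3, 15.4, 12.8 and 12.5 RPKM in mice labelled *Lyn*-/-*Irf5*-/-, against 22.1, 34.8, 27.8 and 33.6 RPKM in *Lyn*-/- mice (difference -1.08 ± 0.16). That call was lost under both equal-sum scalings. Of 5 tested plasma cell and immunoglobulin genes, 2 rose, *Mzb1* (difference 1.75 ± 0.27), a chaperone for immunoglobulin in marginal zone B cells and plasma cells, and *Irf4* (0.999 ± 0.20), a regulator of B and plasma cells. *Mzb1* had 7.29, 9.53, 13.5 and 11.9 RPKM in mice labelled *Lyn*-/-*Irf5*-/-, against 4.56, 2.91, 2.67 and 1.45 RPKM in *Lyn*-/- mice.

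T cell genes also rose, by less. Of 33 tested T cell markers, 19 rose and 0 fell, and all 33 differences were positive (median 0.67). *Cd2*, an adhesion receptor of T and NK cells, had 63.7, 64.2, 61.9 and 56.7 RPKM in mice labelled *Lyn*-/-*Irf5*-/-, against 35.6, 36.9, 43.4 and 35.1 RPKM in *Lyn*-/- mice (difference 0.70 ± 0.13, adjusted p = 0.00349). *Ccr7*, which guides naive T cells to lymph nodes, had 48.6, 40.3, 40.6 and 38.8 RPKM in mice labelled *Lyn*-/-*Irf5*-/-, against 22.5, 24.95, 27.8 and 16.6 RPKM in *Lyn*-/- mice (difference 0.88 ± 0.17). The costimulatory receptor *Cd28* differed by 0.86 ± 0.16 and *Cd5*, which damps receptor signalling, by 0.80 ± 0.17. These 4 genes did not overlap between the genotypes. The count was less stable than that of the B cell list: 6, 10 and 7 markers rose without mouse 1, 2 or 3 labelled *Lyn*-/-*Irf5*-/-, and 10 and 12 without *Lyn*-/- mouse 2 or 4. WT mice had a summed RPKM of 646 to 818 over this list, against 626 to 846 in mice labelled *Lyn*-/-*Irf5*-/- and 410 to 590 in *Lyn*-/- mice.

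Smaller lymphoid and granulocyte groups held more calls higher than lower. Of 21 NK and cytotoxic cell markers, 5 rose and 1 fell (median 0.24). These shares were 23.8% higher and 4.76% lower, against a background of 6.02% higher and 11.7% lower. *Ncr1*, the NKp46 receptor that defines NK cells, had 7.14, 4.6, 2.94 and 4.43 RPKM in mice labelled *Lyn*-/-*Irf5*-/-, against 1.32, 1.2, 1.18 and 2.39 RPKM in *Lyn*-/- mice (difference 1.37 ± 0.25, adjusted p = 0.00376). *Klrb1c*, which encodes NK1.1, differed by 1.12 ± 0.30 and granzyme B (*Gzmb*) by 1.02 ± 0.28, while *S1pr5*, a sphingosine 1-phosphate receptor that NK cells and patrolling monocytes share, fell (difference -0.71 ± 0.20). The calls of *Klrb1c*, *Gzmb* and *S1pr5* were each lost without some libraries, with adjusted p up to 0.0824, 0.0873 and 0.0983. That of *S1pr5* was also lost under both equal-sum scalings. Of 19 eosinophil and basophil entries, 10 passed the filter, and of these 5 rose and 0 fell (median 0.86). *Il5ra*, *Cd200r3* and *Cpa3* reached 1 RPKM only in mice labelled *Lyn*-/-*Irf5*-/-, so that they passed through the group where they are high, and of the 6 markers with at least 1 RPKM in all 8 libraries 1 rose (median 0.28). *Il5ra*, the interleukin 5 receptor alpha chain of eosinophils, had 1.02, 2.37, 2.15 and 1.39 RPKM in mice labelled *Lyn*-/-*Irf5*-/-, against 0.155, 0.619, 0.194 and 0.369 RPKM in *Lyn*-/- mice (difference 1.41 ± 0.25). *Cd200r3* (1.65 ± 0.24) is a receptor of basophils and mast cells, *Cpa3* (1.23 ± 0.25) a mast cell and basophil protease, and *Ccr3* (1.13 ± 0.28) the eotaxin receptor. All 4 were low, under 7 RPKM in every mouse of these 2 genotypes. The values of *Ccr3* overlapped, and its call was lost when either of 2 libraries was left out (adjusted p up to 0.0634). The largest rise of any gene was *Hepacam2*, an immunoglobulin-superfamily adhesion protein, with 1.05, 1.98, 1.82 and 1.24 RPKM in mice labelled *Lyn*-/-*Irf5*-/-, against 0.123, 0, 0.154 and 0 RPKM in *Lyn*-/- mice (difference 1.81 ± 0.21, adjusted p = 0.00044). *St8sia6*, a sialyltransferase of low level in both genotypes, also rose (difference 1.58 ± 0.27). *Hepacam2* and *St8sia6* reached 1 RPKM only in mice labelled *Lyn*-/-*Irf5*-/-, so that they too passed the filter through the group where they are high.

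Interferon-stimulated genes moved in both directions. Of 73 tested type I ISGs, 12 fell and 11 rose in the mice labelled *Lyn*-/-*Irf5*-/-, so that 16.4% were called lower and 15.1% higher, against a background of 11.7% lower and 6.02% higher. The list median was 0.05, as was that of all genes. *Rsad2*, the antiviral enzyme viperin, had 290.5, 399, 344 and 512 RPKM in mice labelled *Lyn*-/-*Irf5*-/-, against 913, 2255, 1551 and 3186 RPKM in *Lyn*-/- mice (difference -2.24 ± 0.34, adjusted p = 0.00129). *Oasl2* (chr5:114896926-114912245), a member of the oligoadenylate synthetase family, had 24.2, 38.9, 40.8 and 36.9 RPKM in mice labelled *Lyn*-/-*Irf5*-/-, against 83.6, 240.2, 118 and 230.5 RPKM in *Lyn*-/- mice (difference -2.13 ± 0.32). *Oas3*, which makes the 2-5A that activates RNase L, had 6.73, 10.5, 8.42 and 10.99 RPKM in mice labelled *Lyn*-/-*Irf5*-/-, against 16.5, 44.96, 32.3 and 72.9 RPKM in *Lyn*-/- mice (difference -1.96 ± 0.36). All 3 were lower in every mouse labelled *Lyn*-/-*Irf5*-/- than in any *Lyn*-/- mouse. *Isg15*, the ubiquitin-like modifier, and *Ifit1*, which binds foreign RNA, were named after their values were seen. *Isg15* had 313, 408, 429 and 507 RPKM in mice labelled *Lyn*-/-*Irf5*-/-, against 564, 1782, 1090.0 and 2292 RPKM in *Lyn*-/- mice (difference -1.62 ± 0.37, adjusted p = 0.0115). Its call was lost with all 20 libraries in 1 model (adjusted p = 0.06875 by limma). *Ifit1* had 17.2, 20.99, 24.1 and 28.1 RPKM in mice labelled *Lyn*-/-*Irf5*-/-, against 22.6, 62.6, 40.03 and 65.9 RPKM in *Lyn*-/- mice, with overlapping values (difference -0.97 ± 0.30, adjusted p = 0.0474). The call of *Ifit1* was lost under both equal-sum scalings and without each of 7 libraries in turn (adjusted p up to 0.137).

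Other ISGs rose. *Ifit3*, a partner of IFIT1, had 10.99, 9.27, 13.3 and 12.4 RPKM in mice labelled *Lyn*-/-*Irf5*-/-, against 5.24, 6.17, 4.84 and 6.78 RPKM in *Lyn*-/- mice (difference 0.94 ± 0.16, adjusted p = 0.00229). That call was lost with all 20 libraries in 1 model (adjusted p = 0.0538 by limma). *Samd9l*, an antiviral and growth-restraining protein gene, differed by 0.79 ± 0.15, the surface protein gene *Ly6c1* by 1.48 ± 0.31 and the tripartite motif gene *Trim30d* by 0.58 ± 0.17, all 3 named after their values were seen. The call of *Trim30d* was lost without each of 5 libraries in turn (adjusted p up to 0.106). *Samd9l* had 14.3, 17.8, 17.8 and 15.9 RPKM in mice labelled *Lyn*-/-*Irf5*-/-, against 8.95, 11.9, 8.16 and 8.37 RPKM in *Lyn*-/- mice. No value of *Ifit3* or *Samd9l* in a mouse labelled *Lyn*-/-*Irf5*-/- overlapped those of *Lyn*-/- mice. *Ifit3* belongs to a cluster of near-identical genes whose reads may have been split between copies, so its level is uncertain. In *Lyn*-/-*Ifnar1*-/- mice, which cannot sense type I interferon, the means were 394 ± 369 RPKM for *Rsad2*, 3.86 ± 1.97 for *Oasl2*, 74.1 ± 89.7 for *Isg15*, 1.59 ± 0.77 for *Ifit1*, 0.969 ± 0.917 for *Ifit3* and 6.24 ± 0.636 for *Samd9l*. These were below the mice labelled *Lyn*-/-*Irf5*-/- for every one of these genes except *Rsad2*, whose means were alike. WT means were 555 ± 98.6 RPKM for *Rsad2*, 15.7 ± 4.78 for *Oasl2*, 286 ± 53.6 for *Isg15*, 3.61 ± 1.78 for *Ifit3* and 19.3 ± 2.5 for *Samd9l*.

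**Figure D4:**
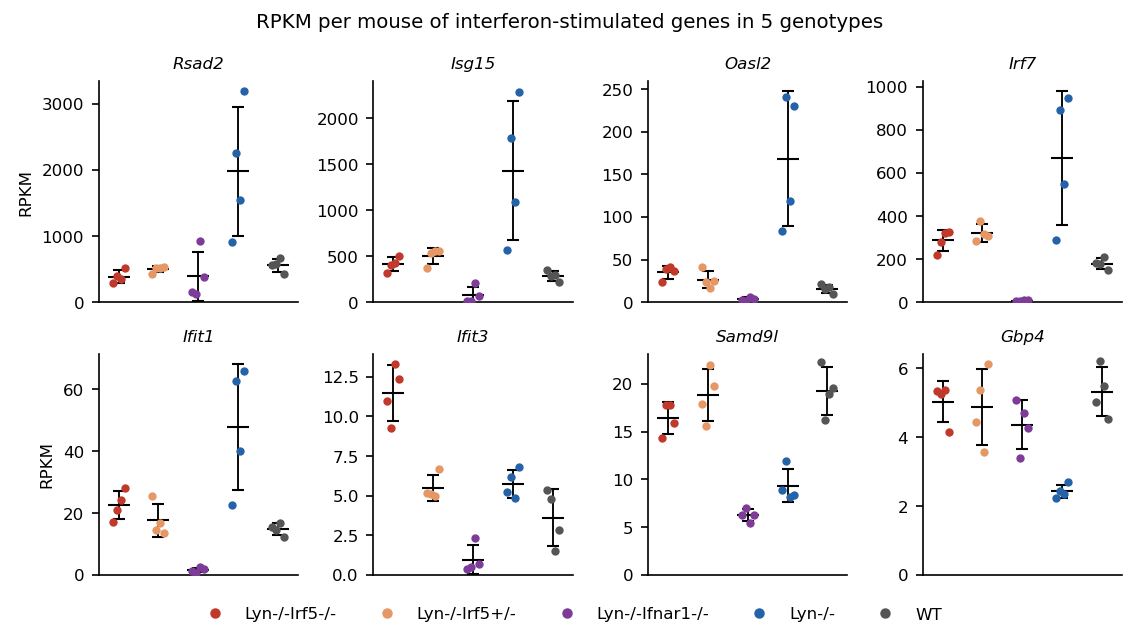
RPKM of 8 interferon-stimulated genes in each mouse of 5 genotypes, in the order given in the legend from left to right, with mean ± SD of 4 mice and axes from 0. *Rsad2*, *Isg15*, *Oasl2*, *Irf7* and *Ifit1* are lower on average in mice labelled *Lyn*-/-*Irf5*-/- (red) than in *Lyn*-/- mice (blue), whose 4 values spread widely, and *Ifit3*, *Samd9l* and *Gbp4* are higher with no overlap.

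The *Lyn*-/- mice themselves spread in a shared order for the ISGs that fell. Mouse 1 was lowest, then mouse 3, mouse 2 and mouse 4, in 9 of the 12 ISGs that fell and in 0 of the 11 that rose. The same order held in 39 of the 43 erythroid genes that fell, in 525 of all 954 genes that fell, in 22 of 492 that rose (4.47%) and in 1215 of all 8178 tested genes (14.9%). It is also the order of the depth of the 4 *Lyn*-/- libraries, which held 2900857, 9057723, 5930356 and 10904301 reads in mice 1 to 4. The erythroid list had medians of 5.86, 6.72, 6.40 and 7.26 on the log2 scale in these mice, against 4.36, 4.86, 4.88 and 5.14 in the mice labelled *Lyn*-/-*Irf5*-/-. Red cell RNA and depth thus moved with the ISGs that fell, and their part in that result was not tested. With equal RPKM sums, over all genes or outside hemoglobin, 25 or 46 type I ISGs were called higher and 6 lower. Without mouse 1, 2 or 3 labelled *Lyn*-/-*Irf5*-/-, 7, 7 or 9 fell and 7, 5 or 4 rose.

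**Figure D5:**
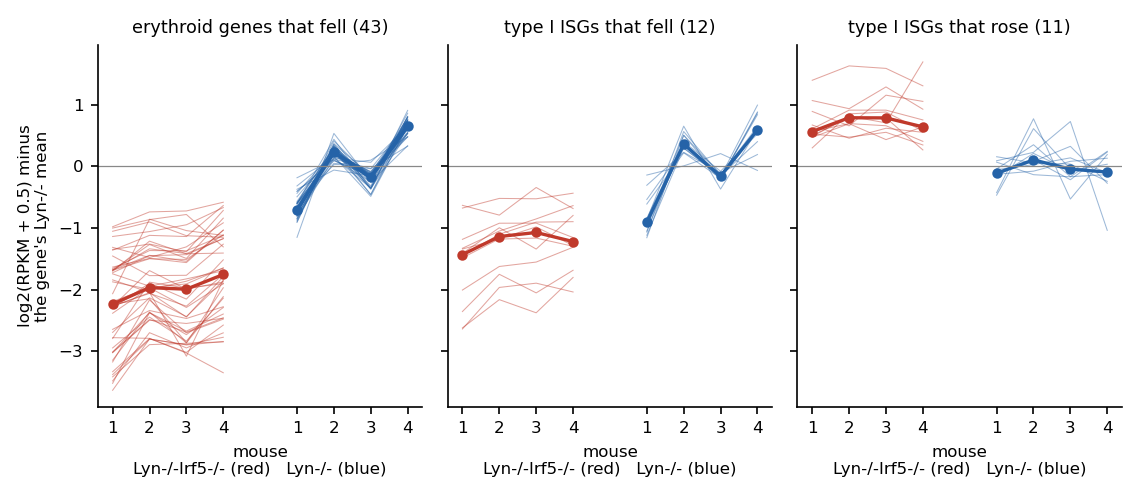
Values of each gene in 4 mice labelled *Lyn*-/-*Irf5*-/- (red, left) and 4 *Lyn*-/- mice (blue, right), as log2(RPKM + 0.5) minus the gene's mean over *Lyn*-/- mice, for erythroid genes that fell (43), type I ISGs that fell (12) and type I ISGs that rose (11). Thin lines join the values of 1 gene, thick lines join medians, and mouse numbers carry no order. The blue profiles of the first 2 panels share a low mouse 1 and a high mouse 4, which the third lacks.

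Promoter sequences of ISGs in both directions were compared, because ISGF3 and IRFs bind a shared element, the interferon-stimulated response element (ISRE). The search was for GAAA, any 2 bases and GAAA again, on either strand, within 250 bases before to 50 bases after the start of RefSeq genes (GRCm38.p6), for the 6649 tested genes that matched. The letters were present in 29 of 59 type I ISGs with a window, against 4.35% of all 6649 genes. Among ISGs, 6 of 12 that fell, 7 of 10 that rose and 16 of 37 that were not called held them. The element was therefore found on both sides, and among all genes called it was in 4.82% of those that fell and 6.04% of those that rose. Below are the bases before the start around the matches in 3 ISGs that fell (*Isg15*, *Rsad2* and *Ifit1*) and 2 that rose (*Ifit3* and *Trim30d*), 5′ to 3′ on the gene's strand, with each match in capitals, and matches that overlap run together. They lie at chr4:156200835-156200936 (minus strand), chr12:26456523-26456612 (minus), chr19:34640745-34640853 (plus), chr19:34583333-34583456 (plus) and chr7:104507850-104507930 (minus).
*Isg15*: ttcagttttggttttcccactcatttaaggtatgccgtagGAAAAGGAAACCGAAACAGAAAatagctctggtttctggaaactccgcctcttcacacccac
*Rsad2*: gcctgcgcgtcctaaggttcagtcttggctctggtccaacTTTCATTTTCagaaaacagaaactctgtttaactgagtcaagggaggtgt
*Ifit1*: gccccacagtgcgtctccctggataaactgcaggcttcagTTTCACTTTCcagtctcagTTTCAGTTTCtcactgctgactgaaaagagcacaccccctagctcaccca
*Ifit3*: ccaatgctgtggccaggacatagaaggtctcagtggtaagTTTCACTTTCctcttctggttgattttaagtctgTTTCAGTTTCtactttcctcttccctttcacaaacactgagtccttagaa
*Trim30d*: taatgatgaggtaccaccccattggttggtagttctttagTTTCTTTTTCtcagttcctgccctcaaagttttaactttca

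*Isg15* carries 3 overlapping matches, *Ifit1* and *Ifit3* carry 2 each and the others 1. For the erythroid genes that fell, the letters AGATAA, a site of the GATA1 factor of red cells, were searched in the same windows after the values were seen. They were in 7 of 27 erythroid genes that fell (25.9%), against 532 of all 6649 genes, 10.3% of all genes that fell and 11.3% of all genes that rose. Over all 33 erythroid genes with a window, called or not, they were in 9 (27.3%). The promoter of *Alas2* (chrX:150547291-150547376, plus strand) holds 1 match, on the other strand and in capitals, and is shown as a member of the group with the widest fall.
*Alas2*: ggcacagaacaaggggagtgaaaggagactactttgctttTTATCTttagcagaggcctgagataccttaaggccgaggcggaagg

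The factors that act upstream were looked at next. Of 11 tested interferon regulatory factors and their cofactors, 2 rose and 1 fell (median 0.19). These shares were 18.2% higher and 9.09% lower, against a background of 6.02% higher and 11.7% lower. *Irf7*, which amplifies type I interferon and is itself an ISG, had 221, 282, 323 and 324 RPKM in mice labelled *Lyn*-/-*Irf5*-/-, against 288, 893, 549 and 945 RPKM in *Lyn*-/- mice, with overlapping values (difference -1.09 ± 0.33, adjusted p = 0.0438). That call was lost when 7 of the 8 libraries were left out 1 at a time (adjusted p up to 0.129). Besides *Irf4*, the corepressor gene *Irf2bp2* rose, with 6.68, 6.69, 6.18 and 6.34 RPKM in mice labelled *Lyn*-/-*Irf5*-/-, against 3.65, 3.3, 4.27 and 3.18 RPKM in *Lyn*-/- mice (difference 0.77 ± 0.14, adjusted p = 0.00274). Of 29 genes from Toll-like receptors to the kinases upstream of IRF5, 4 fell and 0 rose (13.8% lower, against a background of 11.7% lower). *Cd14*, the coreceptor of TLR4, had 4.27, 6.19, 8.95 and 7.42 RPKM in mice labelled *Lyn*-/-*Irf5*-/-, against 21.9, 13.5, 16.1 and 11.97 RPKM in *Lyn*-/- mice (difference -1.19 ± 0.23, adjusted p = 0.00509). The other calls were *Irak3*, an inhibitory kinase homologue (-0.82 ± 0.19), *Slc15a4*, the lysosomal transporter needed for TLR7 and TLR9 signals (-0.56 ± 0.14), and the adaptor *Ticam2* (-0.68 ± 0.17). Under both equal-sum scalings all 4 calls were lost, and the difference of *Slc15a4* was 0.09 with equal sums outside hemoglobin.

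Interferon gamma-response genes were called in both directions, with 5 of 27 higher and 3 lower (median 0.15). These shares were 18.5% higher and 11.1% lower, against a background of 6.02% higher and 11.7% lower. The share called lower was thus near the background. The guanylate-binding protein genes *Gbp4* and *Gbp9* and the immunity-related GTPase gene *Iigp1* rose. *Gbp4* had 5.35, 5.24, 5.38 and 4.15 RPKM in mice labelled *Lyn*-/-*Irf5*-/-, against 2.25, 2.42, 2.36 and 2.7 RPKM in *Lyn*-/- mice (difference 0.91 ± 0.14, adjusted p = 0.00138). *Gbp9* differed by 0.90 ± 0.16 and *Iigp1* by 0.80 ± 0.16, and none of the 3 overlapped. *Fcgr4*, an activating Fc receptor of monocytes and neutrophils, fell, with 21.7, 17.5, 26.8 and 21.7 RPKM in mice labelled *Lyn*-/-*Irf5*-/-, against 56.9, 33.4, 36.4 and 44.7 RPKM in *Lyn*-/- mice (difference -0.94 ± 0.19). *Fcgr4* is also a marker of nonclassical monocytes, and its call was lost under both equal-sum scalings, which gave 10 and 18 genes of the list higher and 0 lower.

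Inflammatory gene groups held more falls than rises. Of 29 NF-kB target and feedback genes, 9 fell and 0 rose (31.0%, against a background of 11.7% lower), with a median of -0.34. *Tnip1*, an inhibitor of NF-kB that partners A20, had 10.1, 12.2, 10.4 and 8.61 RPKM in mice labelled *Lyn*-/-*Irf5*-/-, against 21.96, 23.2, 21.7 and 21.6 RPKM in *Lyn*-/- mice (difference -1.08 ± 0.14, adjusted p = 0.000567). The anti-apoptotic genes *Bcl2a1b* and *Bcl2a1d* differed by -1.13 ± 0.17 and -1.37 ± 0.21, although these near-identical copies may share reads. Mitochondrial superoxide dismutase (*Sod2*) differed by -1.11 ± 0.24. With equal RPKM sums 1 gene of the list was called lower, and the list median turned to 0.18, or 0.32 outside hemoglobin. Of 12 complement genes, 6 fell and 1 rose (median -0.43, and 0.10 or 0.25 with equal sums). *Cfb*, complement factor B, had 0.854, 0.307, 1.13 and 0.562 RPKM in mice labelled *Lyn*-/-*Irf5*-/-, against 2.51, 3.2, 4.02 and 2.86 RPKM in *Lyn*-/- mice (difference -1.62 ± 0.23, adjusted p = 0.000887). *Cfb* averaged 0.14 ± 0.145 RPKM in *Lyn*-/-*Ifnar1*-/- mice and 0.0504 ± 0.0605 RPKM in WT mice. C3 differed by -0.67 ± 0.13 and the integrin chain *Itgax*, part of complement receptor 4, by -1.20 ± 0.15, while *Cd55*, which speeds decay of the complement convertases, rose (difference 0.86 ± 0.15). The calls of C3 and *Itgax* were lost under both equal-sum scalings.

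Inflammasome and interleukin 6 pathway genes were near the background. Of 30 inflammasome, interleukin 1 and mediator genes, 1 rose and 3 fell (13.3% called). The tumour necrosis factor receptor gene *Tnfrsf1b* had 23.04, 22.3, 23.95 and 24.6 RPKM in mice labelled *Lyn*-/-*Irf5*-/-, against 42.5, 36.6, 40.9 and 34.7 RPKM in *Lyn*-/- mice, with no overlap (difference -0.70 ± 0.13, adjusted p = 0.00285). Its call held without each library in turn. Caspase 1 (*Casp1*) differed by -0.58 ± 0.16 (adjusted p = 0.0304) and the sensor *Nlrp3* by 0.66 ± 0.20 (adjusted p = 0.0463), in opposite directions. The calls of *Casp1* and *Nlrp3* were each lost when at least 5 of the 8 libraries were left out 1 at a time, with adjusted p up to 0.0731 for *Casp1* and 0.126 for *Nlrp3*, and *Nlrp3* values overlapped. Under both equal-sum scalings the calls of *Tnfrsf1b* and *Casp1* were lost. Of 20 genes of interleukin 6, STAT3 and SOCS signalling, 1 rose and 3 fell (20.0% called). *Myc* rose, with 4.35, 6.23, 6.28 and 5.28 RPKM in mice labelled *Lyn*-/-*Irf5*-/-, against 1.49, 1.47, 3.16 and 3.1 RPKM in *Lyn*-/- mice (difference 1.16 ± 0.24, adjusted p = 0.00647). *Il10ra*, the interleukin 10 receptor alpha chain, differed by -0.61 ± 0.14, the repressor gene *Bcl6* by -0.73 ± 0.17 and the kinase gene *Pim1* by -0.66 ± 0.20. All 3 calls were lost under both equal-sum scalings, that of *Bcl6* also without mouse 1 labelled *Lyn*-/-*Irf5*-/- (adjusted p = 0.0518) and that of *Pim1* when 5 of the 8 libraries were left out 1 at a time (adjusted p up to 0.118).

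Oxidative phosphorylation (OXPHOS) genes, which encode the 5 complexes of the mitochondrial inner membrane, were lower in part. Of 76 tested subunit and accessory genes, 15 fell and 0 rose (19.7% lower, against a background of 11.7%), and 56 had negative differences (median -0.21). By complex, 3 of 33 fell in complex I, 0 of 4 in complex II, 3 of 9 in complex III, 3 of 13 in complex IV and 6 of 17 in complex V. The share in complex I, 9.09%, was below the background of 11.7%. Those in complexes III, IV and V were 33.3%, 23.1% and 35.3%. *Atp5b*, the catalytic beta subunit of ATP synthase, had 198, 207, 197 and 242 RPKM in mice labelled *Lyn*-/-*Irf5*-/-, against 309, 590.4, 514 and 803 RPKM in *Lyn*-/- mice (difference -1.32 ± 0.25, adjusted p = 0.00438). *Atpif1*, the inhibitor of that enzyme, had 358, 291, 292 and 352 RPKM in mice labelled *Lyn*-/-*Irf5*-/-, against 384, 809.9, 593 and 1059 RPKM in *Lyn*-/- mice (difference -1.05 ± 0.27). The complex V genes *Atp5l* and *Atp5a1* differed by -1.09 ± 0.30 and -0.55 ± 0.13. In complex I, *Ndufb11* had 40.5, 47.9, 42.1 and 53.2 RPKM in mice labelled *Lyn*-/-*Irf5*-/-, against 68.8, 105, 74.03 and 100.4 RPKM in *Lyn*-/- mice (difference -0.90 ± 0.17), and *Ndufb9* and *Ndufa11* differed by -0.82 ± 0.21 and -0.66 ± 0.18. In complex III, *Uqcrh* differed by -0.87 ± 0.22, *Uqcrq* by -0.59 ± 0.19 and *Uqcrc2* by -0.48 ± 0.15. In complex IV, *Cox7b* differed by -0.99 ± 0.25, *Cox7a2* by -0.90 ± 0.26 and *Cox5b* by -0.52 ± 0.15. *Sdhb* of complex II, which did not pass, had 21.9, 21.6, 14.5 and 22.7 RPKM in mice labelled *Lyn*-/-*Irf5*-/-, against 25.2, 20.9, 18.3 and 21.6 RPKM in *Lyn*-/- mice (difference -0.10 ± 0.17, adjusted p = 0.729). *Atp5b* averaged 319.9 ± 53.5 RPKM in *Lyn*-/-*Irf5*+/- mice, 683 ± 517 in *Lyn*-/-*Ifnar1*-/- mice and 307 ± 57.4 in WT mice.

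The OXPHOS count was among the least stable. It was 3 lower without mouse 1, 2 or 3 labelled *Lyn*-/-*Irf5*-/-, 4 lower and 1 higher without *Lyn*-/- mouse 2, 7 without *Lyn*-/- mouse 4 and 21 without *Lyn*-/- mouse 1, and with all 20 libraries in 1 model it was 2. With equal RPKM sums, 3 genes were higher and 2 lower (median 0.32), and with equal sums outside hemoglobin 33 were higher and 1 lower (median 0.46). Of the 15 genes that fell, 11 shared the order of mice 1, 3, 2 and 4 that the red cell genes had in *Lyn*-/- mice, and the part of red cell RNA in this result was not tested.

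Finally, genes near the targeted locus were checked, since mice with a knockout allele can keep linked DNA of another origin. Within 5 Mb of *Irf5*, 28 genes were tested and 5 were called (17.9%, against a background of 17.7%). *Tspan33*, *Arf5* (-2.39 ± 0.23), *Ube2h* (-1.82 ± 0.20) and *Bpgm* fell, and the nuclear envelope gene *Tmem209* rose (0.55 ± 0.16, adjusted p = 0.0348). *Tspan33*, at chr6:29694214-29718558, lies close to *Irf5* at chr6:29526130-29541869, yet it is also an erythroid gene, and linkage and the fall of its group cannot be told apart. *Arf5*, a small GTPase of vesicle traffic, had 58.03, 75.4, 64.9 and 66.8 RPKM in mice labelled *Lyn*-/-*Irf5*-/-, against 242, 422, 279 and 519 RPKM in *Lyn*-/- mice, and *Ube2h*, a ubiquitin-conjugating enzyme, had 7.23, 8.28, 6.86 and 7.3 RPKM in mice labelled *Lyn*-/-*Irf5*-/-, against 18.7, 30.3, 25.6 and 38.8 RPKM in *Lyn*-/- mice. Both separated the genotypes completely. Over the *Lyn*-/- mice both also followed the order that most red cell genes that fell shared, as did *Tspan33* and *Bpgm*. The part of linkage or of red cell RNA in these falls was not tested. The call of *Tmem209* was lost when 6 of the 8 libraries were left out 1 at a time (adjusted p up to 0.0926).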

How the data were processed

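Peripheral blood was collected into RNAprotect tubes, and strand-specific SureSelect libraries were sequenced on a NextSeq 500. Raw data were converted by the authors (bcl2fastq 2.20.0.422), and their alignment used STAR 2.6.0c and the mm10 genome. Per-gene counting was by featureCounts 1.6.2, and the values deposited by the authors are RPKM with TMM scaling from edgeR 3.20.9, in 1 column per mouse. The annotation and the filter that chose the 9228 listed genes are not given in the sources used here. Before TMM scaling RPKM follows the library's mapped reads, so a large change in abundant red cell RNA can move the values of other genes. TMM rescales each library on the assumption that most genes do not differ, and the deposited sums were not equal. They were 584327 to 894908 RPKM in libraries labelled *Lyn*-/-*Irf5*-/- and 670185 to 1375300 in *Lyn*-/- libraries. RPKM values of a gene were whole multiples of a step, and whole reads were recovered for all 9228 genes (100% of genes, tolerance 0.01 reads). These reads served for depth and for 1 alternative.

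Values were taken as log2(RPKM + 0.5) and compared in R 4.3.3 by limma 3.58.1, allowing a variance trend, with genotype as the only term and only the 8 libraries compared. The p values measure the spread between these mice. The fit was tested on simulated data. Of 930 list entries, 778 were matched to the table by symbol, or by an older name that RefSeq gives to that gene alone. Named genes were *Lyn* and *Irf5*, the 10 largest rises and 10 largest falls called without overlap (unnamed gene models and antibody V segments left out), up to 4 genes per list by the size of the t statistic among those called, genes called within 5 Mb of *Irf5*, and a few stated exceptions. Some genes that the rule named are not reported here. The members, the lists and the rule were chosen with earlier results of these data known. Alternatives changed the pseudocount (0.1 or 1), the filter, the scaling, the libraries in the model, the variance trend, a replicate block, limma-voom on the recovered reads and each library in turn. Tables and plots were made in Python 3.11.15 (numpy 2.4.6, pandas 2.3.3, matplotlib 3.10.9).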

Additional observations from a re-analysis of the deposited data

Results flagged for a closer look

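Among the named genes, 11 of 244 groups of 4 mice held a mouse set far apart from the other 3 by Dixon's criterion, which chance meets in about 1 in 20 groups. Mouse 1 labelled *Lyn*-/-*Irf5*-/- was lowest for the red cell genes *Tmod1* (8.315 RPKM, others 14.16 to 15.18) and *Tspan33* (25.9 RPKM, others 37.4 to 38.61). *Lyn*-/- mouse 1 was highest for the granule genes *Ngp* (234.5 RPKM, others 32.69 to 46.62) and *Ltf* (26.23 RPKM, others 3.187 to 5.537), for the monocyte receptor *Cd300e* (72.52 RPKM, others 54.71 to 54.93) and for the chemokine *Ccl9* (19.51 RPKM, others 13.8 to 14.63). *Lyn*-/- mouse 4 was lowest for the ribosomal gene *Rps18* (95.9 RPKM, others 135.7 to 140.9) and highest for the NK cell genes *Ncr1* (2.39 RPKM, others 1.179 to 1.318) and *Gzmb* (7.715 RPKM, others 2.797 to 3.308). Mouse 4 labelled *Lyn*-/-*Irf5*-/- was lowest for *Gbp4* (4.15 RPKM, others 5.242 to 5.376) and mouse 3 for *Sdhb* (14.49 RPKM, others 21.58 to 22.73).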

How the results depend on the processing

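Across 20 alternatives, 64 of the 118 named genes that passed were called in the same direction under every one, 80 under the 18 other than the equal-sum scalings and 83 without each library in turn. The total of 1446 called genes became 4748 with equal sums outside hemoglobin, with 4338 higher and 410 lower, and with equal sums over all genes 1329 were higher and 377 lower. Without 1 library at a time the total was 900 to 1798, with 224 to 686 higher and 676 to 1112 lower, and it was lowest (900, 919 and 929) without mouse 1, 2 or 3 labelled *Lyn*-/-*Irf5*-/-. All 20 libraries in 1 model gave 1183, and limma-voom on recovered reads 1558.

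Some directions turned when libraries were scaled to equal RPKM sums. With equal sums over all genes the log2 differences were 0.47 for *Lyn*, 0.056 for *Uqcrc2*, 0.023 for *Cox5b* and 0.43 for *Sdhb*. Outside hemoglobin they were 0.61 for *Lyn*, 0.087 for *Slc15a4*, 0.077 for *Casp1*, 0.075 for *Il10ra*, 0.027 for *Pim1*, 0.20 for *Uqcrc2*, 0.10 for *Uqcrq*, 0.17 for *Cox5b*, 0.14 for *Atp5a1*, 0.57 for *Sdhb* and 0.020 for *Ceacam1*. By construction these scalings shift every gene together. Without 1 library at a time *Lyn* ranged from -0.12 to 0.070 and *Sdhb* from -0.17 to 0.044, neither called.

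List medians are given here less the median of all genes. The B cell list was at 1.04 with a pseudocount of 0.1 and 1.07 with limma-voom, and at 0.82 to 1.04 without 1 library at a time. Requiring at least 1 RPKM in all 8 libraries tests fewer genes and gave -0.095 for dendritic cell markers, -0.36 for neutrophil precursor genes and 0.26 for eosinophil and basophil markers, and dropping the filter gave -0.84 for mitotic cell cycle genes. Without 1 library at a time the range was -0.022 to 0.16 for interferon regulatory factors, -0.24 to -0.14 for complex I, -0.11 to 0.078 for complex II, -0.22 to -0.039 for Fc and inhibitory receptors and -0.81 to -0.51 for heme breakdown and oxidant defence. The causes of these moves were not tested.

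Replicate numbers were not taken to pair the mice. The correlations of same-numbered mice were 0.089, -0.022, -0.001 and 0.289, against -0.244 to 0.130 for differently numbered mice. So few values cannot tell whether the numbers pair the mice. The replicate block gave 1489 called genes, 512 higher and 977 lower. Depth limits the genes of low level, since the median gene held 35 to 69 reads in a library.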

Other observations

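Fc receptors and inhibitory receptors, which help set the threshold of leukocyte activation, moved both ways, with 7 of 31 higher and 6 lower in mice labelled *Lyn*-/-*Irf5*-/-. These shares were 22.6% higher and 19.4% lower, against a background of 6.02% higher and 11.7% lower. *Siglecg*, an inhibitory lectin of B cells, had 3.003, 4.66, 3.66 and 5.72 RPKM in mice labelled *Lyn*-/-*Irf5*-/-, against 1.89, 1.95, 1.11 and 1.76 RPKM in *Lyn*-/- mice (difference 1.11 ± 0.21, adjusted p = 0.00402 by limma), with no overlap. The inhibitory adhesion receptor *Ceacam1* had 6.9, 8.62, 9.16 and 8.43 RPKM in mice labelled *Lyn*-/-*Irf5*-/-, against 12.6, 10.95, 14.2 and 15.1 RPKM in *Lyn*-/- mice (difference -0.64 ± 0.15, adjusted p = 0.0125 by limma), and this call was lost under both equal-sum scalings.

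Platelet and megakaryocyte markers passed limma in 0 of 25 (median 0.13), with 3 at an unadjusted p under 0.05 and 0 called by limma-voom, while 16 and 18 were called higher with equal RPKM sums over all genes and outside hemoglobin. The platelet chemokine *Ppbp* had 1600.2, 1208, 1583 and 1831 RPKM in mice labelled *Lyn*-/-*Irf5*-/-, against 502, 1010.1, 757 and 1435 RPKM in *Lyn*-/- mice, with overlapping values (difference 0.84 ± 0.29, adjusted p = 0.0733). Of 71 cytosolic ribosomal protein genes, 4 rose and 0 fell (median 0.17). That is 5.63% higher, near the background of 6.02% higher. The 4 were *Rpl10a* (0.49 ± 0.13), *Rpl22* (0.50 ± 0.14), *Rps18* (0.59 ± 0.16) and *Rps25* (0.46 ± 0.13). Leaving out any 1 library gave 0 to 11 of the 71 higher, with 0 without mouse 1 or 3 labelled *Lyn*-/-*Irf5*-/- and 11 without *Lyn*-/- mouse 1. With equal sums 51 and 71 were called higher, and the genotypes did not overlap in 28 of the 71, all higher in mice labelled *Lyn*-/-*Irf5*-/-, against 9.48% of all tested genes that did not overlap in that direction. Of 20 genes of glycolysis and its transporters, 2 fell (10% lower, near the background of 11.7% lower). They were the monocarboxylate carriers *Slc16a1* (-1.21 ± 0.27) and *Slc16a3* (-0.69 ± 0.19). *Slc16a1* had 1.59, 1.24, 1.84 and 1.26 RPKM in mice labelled *Lyn*-/-*Irf5*-/-, against 1.99, 4.87, 4.29 and 6.22 RPKM in *Lyn*-/- mice, and *Slc16a3* had 12.9, 14.8, 15.96 and 14.5 RPKM in mice labelled *Lyn*-/-*Irf5*-/-, against 34.96, 22.7, 22.1 and 18.1 RPKM in *Lyn*-/- mice. The call of *Slc16a3* was lost when 5 of the 8 libraries were left out 1 at a time (adjusted p up to 0.0846) and under both equal-sum scalings. That of *Slc16a1* was lost with equal sums over all genes.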
